A study of Caenorhabditis elegans with 6 samples.

Results

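The basement membrane genes of *C. elegans* were examined as a set of 10, as follows: the type IV collagens *emb-9* and *let-2*, the collagen XV/XVIII gene *cle-1*, the laminins *lam-1*, *lam-2*, *lam-3* and *epi-1*, the nidogen *nid-1*, the perlecan *unc-52* and the SPARC gene *ost-1*. The deposited table held all 10 members among 20138 genes. They were chosen by name, with earlier results of these data known.

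A basement membrane is the thin sheet of matrix that lies under epithelia and around muscle, pharynx, intestine and gonad. Laminin is secreted as a trimer of an alpha, a beta and a gamma chain and lies against the cell surface through integrin and dystroglycan, while type IV collagen is secreted as a trimer of EMB-9 and LET-2 chains and forms a second, cross-linked network that bears tension. Nidogen, perlecan and collagen XV/XVIII are held on or between these networks, and SPARC is a collagen-binding glycoprotein that also travels with type IV collagen during its secretion. In the worm, body wall muscle and the somatic gonad make most of the type IV collagen, so that much of the matrix around other tissues is made elsewhere.

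Poly-A RNA of whole, untreated day 1 adults grown on OP50 bacteria was sequenced in 3 WT (N2) libraries and in 3 whose label is *fmo-4* OE. The comparison asks which transcripts differ in worms that overexpress *fmo-4*, a flavin-containing monooxygenase. The labels give an overexpression strain with no promoter, and the study made such worms with multicopy arrays that were integrated at random, driven either in all tissues or in the hypodermis, so which of these was sequenced cannot be said. The labels call the libraries of each group biological replicates. They do not say that these came from separately grown cultures, so p-values measure the spread between these libraries.

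Total read counts ran from 17576872 to 24943501. The targeted gene was checked first. Reads of *fmo-4* numbered 522, 397 and 525 in WT replicates 1 to 3, against 372, 476 and 368 under the *fmo-4* OE label. Its mean normalized count (reads over a library factor) was 480 ± 42.8 (SD, n = 3) in WT and 407 ± 49.8 (SD, n = 3) in the labelled libraries, a log2 difference of -0.24 (SE 0.18, edgeR with Benjamini-Hochberg adjustment, adjusted p = 0.947). Each labelled library lay below each WT library, so the label is not borne out by this gene. By qPCR the study reported *fmo-4* far above WT in both kinds of overexpression strain. Every direction below is that of the labelled libraries. Whole adults also hold germline, sperm and embryos, and each tissue marker list was detected in all 6 libraries.

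The members differed widely in level. Levels between genes were compared as FPKM, fragments per kilobase of the deposited gene length, scaled to the depth of the library. *ost-1*, SPARC, was the most abundant at 231.5 ± 31.5 FPKM (SD, n = 6), with 173 to 258 FPKM in single libraries. It made up 52.1% to 59.0% of the summed FPKM of the 10 members and ranked 469 among the 20138 genes.

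The type IV collagens came next. *let-2* had 60.5 ± 8.36 FPKM and *emb-9* 38.5 ± 6.98 FPKM (SD, n = 6 each). These 3 genes held their order in 6 of 6 libraries and together gave 74.9% to 84.6% of the members' FPKM. The order below them was less firm.

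*lam-1* had 18.4 ± 4.69, *nid-1* 15.3 ± 1.65, *lam-2* 14.3 ± 3.16, *cle-1* 12.2 ± 3.12, *unc-52* 11.7 ± 1.40 and *epi-1* 10.4 ± 2.18 FPKM (SD, n = 6 each). Each of these overlapped its neighbour in the order. *lam-1* was above *nid-1* in 5 of 6 libraries, *nid-1* above *lam-2* in 4, *lam-2* above *cle-1* in 4, *cle-1* above *unc-52* in 3 and *unc-52* above *epi-1* in 4. *lam-3* was the lowest member at 4.19 ± 1.76 FPKM (SD, n = 6) and lay below *epi-1* in every library. All 4 laminins together made up 7.30% to 14.0% of the members' FPKM. FPKM depends on the gene length used. The deposited length was 81.3% of the merged exon bases of WBcel235 for *unc-52*, 83.4% for *lam-2*, 91.9% for *lam-1* and 97.6% for *cle-1*, and 98.96% to 100.5% for the other 6 members.

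**Figure D1:**
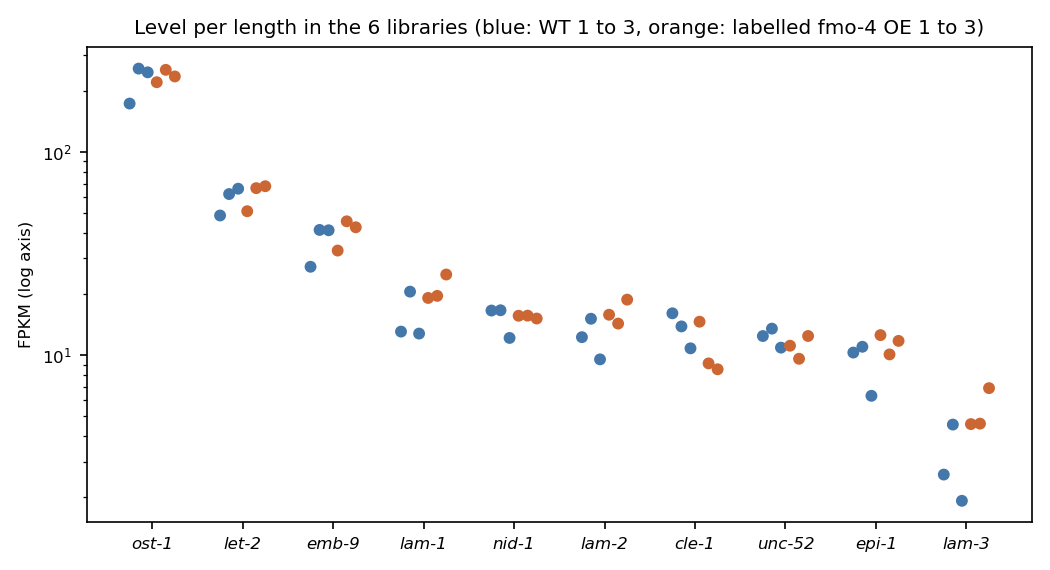
FPKM of each of the 10 genes (horizontal axis, ordered by mean) in the 6 libraries, on a log axis. Blue points are WT replicates 1 to 3 and orange points the libraries labelled *fmo-4* OE, each in order of replicate number. *ost-1* lies between 173 and 258 FPKM, and *lam-3* between 1.92 and 6.89.

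No member was called different between the groups. All 10 passed the filter on low counts, and 0 of 10 were called at an adjusted p under 0.05 (edgeR quasi-likelihood test with Benjamini-Hochberg adjustment over 13413 genes). The background was 6 genes, 2 higher and 4 lower, or 0.0447% of those tested. At an unadjusted p under 0.05, *lam-3* alone was higher, against 4.32% of all genes, and 0 members were lower, against 3.01% of all genes. DESeq2 also called 0 of 10 after adjustment and 1 of 10, again *lam-3*, before it.

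The groups overlapped for all 10 members. Among all genes, 5.85% had every labelled library above every WT library and 5.26% had every one below. The members' log2 fold changes ran from -0.34 for *cle-1* to 0.82 for *lam-3*, with a median of 0.10, and 8 of 10 were above 0. The median over all genes tested was -0.02. Single libraries moved the members' median and this count. The members' median was 0.0049 with 5 of 10 above 0 when WT replicate 1 was left out, and 0.014 with 6 above 0 for *fmo-4* OE replicate 2. It was 0.15 with 7 above 0 for WT replicate 3, 0.19 with 8 above 0 for WT replicate 2, and 0.24 with 8 above 0 for *fmo-4* OE replicate 1.

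**Figure D2:**
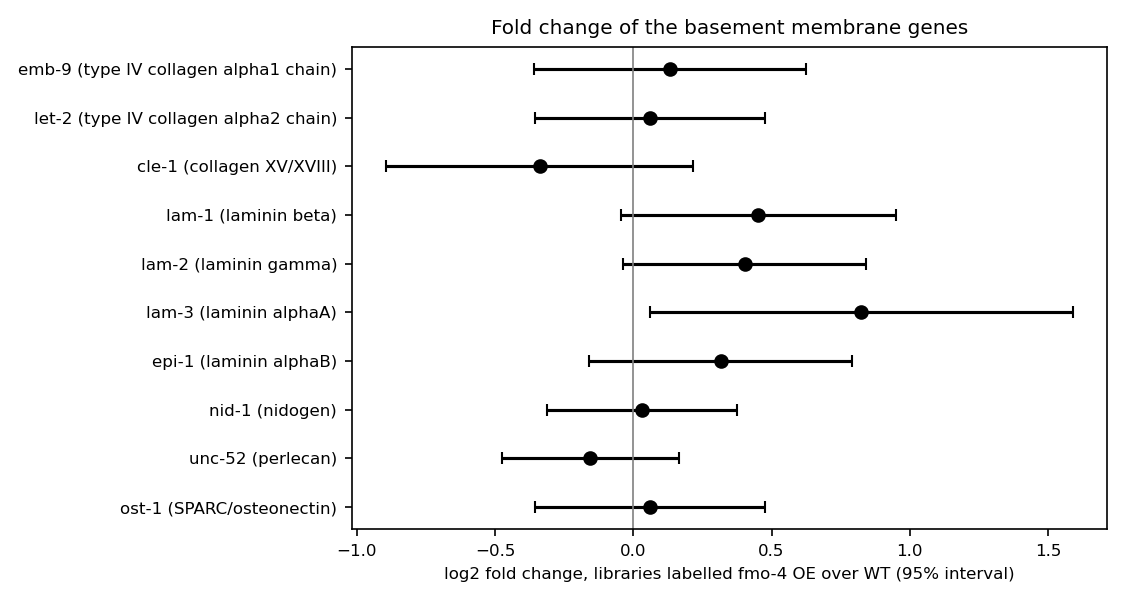
Log2 fold change, *fmo-4* OE label over WT (horizontal axis) for each member, with its protein in brackets. Points are edgeR estimates and bars their 95% intervals. The interval of *lam-3*, 0.06 to 1.59, lies above 0, and the other 9 intervals include 0.

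The laminins had the largest differences of the set in the upward direction. *lam-3* encodes laminin alphaA, 1 of the 2 alpha chains of the worm (T22A3.8, chromosome I, 10608466 to 10621428, plus strand). It had 501, 905 and 389.7 normalized counts in WT replicates 1 to 3, and 899.6, 924 and 1354 in the labelled libraries. WT replicate 2 lay within the range of the labelled libraries, and the other 2 WT libraries lay below all 3.

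The group means of *lam-3* were 599 ± 271 and 1059 ± 256 normalized counts (SD, n = 3 each), a 1.77-fold difference. The 95% interval ran from 1.04-fold to 3.01-fold (log2 0.82, SE 0.33, unadjusted p = 0.038, edgeR adjusted p = 0.632). The unadjusted call was lost when WT replicate 1, WT replicate 3 or *fmo-4* OE replicate 3 was left out, with log2 values of 0.70, 0.59 and 0.61. Leaving out WT replicate 2 raised it to 1.25, with an edgeR adjusted p of 0.092. That was the smallest adjusted p of any member under any of the 13 alternatives, and that of *lam-3* ran from 0.092 to 1.0 over them.

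*lam-1*, the single laminin beta chain of the worm (W03F8.5, chromosome IV, 5173280 to 5183218, plus strand), had 1454, 2343 and 1489 normalized counts in WT and 2157, 2256 and 2817 in the labelled libraries. *lam-2*, the single gamma chain (C54D1.5, chromosome X, 7144873 to 7151235, minus strand), had 1268, 1602 and 1033 in WT and 1658, 1531 and 1969 in the labelled libraries. In both genes WT replicate 2 stood among the labelled libraries, *fmo-4* OE replicate 3 was the highest, and the other WT libraries were the lowest. The log2 difference was 0.45 for *lam-1* (SE 0.21, 95% interval -0.05 to 0.95) and 0.40 for *lam-2* (SE 0.19, 95% interval -0.04 to 0.84), and the edgeR adjusted p was 0.710 and 0.708. Without WT replicate 2 they differed by 0.71 and 0.58, with unadjusted p of 0.005 and 0.018 and edgeR adjusted p of 0.137 and 0.265. Other omissions lowered them, *lam-1* to 0.32 without WT replicate 1, 0.34 without WT replicate 3 and 0.33 when *fmo-4* OE replicate 3 was omitted, and *lam-2* to 0.26 and 0.30 when replicate 3 of WT or of the labelled libraries was omitted.

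*epi-1* encodes laminin alphaB, the other alpha chain, whose mutants have disordered epithelia (K08C7.3, chromosome IV, 10666827 to 10679441, plus strand). It had 2377, 2602 and 1525 normalized counts in WT and 2936, 2409 and 2753 in the labelled libraries. A single library, WT replicate 3, was well below the other 5. *epi-1* differed by 0.32 on the log2 scale (SE 0.21, 95% interval -0.16 to 0.79, edgeR adjusted p = 0.880), and it was 0.11 without WT replicate 3. For each of the 4 laminin genes all 3 labelled libraries were above the WT mean.

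The type IV collagens showed a different division of the libraries. *emb-9*, the alpha1 chain (K04H4.1, chromosome III, 9336877 to 9344447, minus strand), had 3137, 4881 and 4968 normalized counts in WT and 3820, 5434 and 4980 in the labelled libraries. *let-2*, the alpha2 chain (F01G12.5, chromosome X, 16380745 to 16389369, minus strand), had 5849, 7643 and 8296 in WT and 6221, 8253 and 8269 in the labelled libraries. Replicate 1 was the lowest of its group in both groups and both genes, and the other 4 libraries lay close together.

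The group means were 4329 ± 1033 and 4745 ± 832 normalized counts for *emb-9*, and 7263 ± 1267 and 7581 ± 1178 for *let-2* (SD, n = 3 each). The log2 difference was 0.13 for *emb-9* (SE 0.21, 95% interval -0.36 to 0.62) and 0.06 for *let-2* (SE 0.18, 95% interval -0.35 to 0.48). Both differences were below the spread within groups, with edgeR adjusted p of 0.956 and 0.965. Without WT replicate 1 the sign turned, to -0.066 and -0.084. *let-2* was also at or just below 0 without *fmo-4* OE replicate 2 or 3.

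*ost-1* divided the libraries much as the type IV collagens did, though less sharply in *fmo-4* OE replicate 1. This gene (C44B12.2, chromosome IV, 1107396 to 1110860, plus strand) had 4052, 6172 and 6046 normalized counts in WT and 5231, 6146 and 5590 in the labelled libraries. Its log2 difference was 0.06 (SE 0.18, 95% interval -0.36 to 0.48, edgeR adjusted p = 0.965), and it was -0.12 without WT replicate 1 and just below 0 without *fmo-4* OE replicate 2.

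*cle-1* was the member with the lowest fold change. It encodes the collagen XV/XVIII homologue, whose C-terminal endostatin domain is known from mammals as well as the worm. It had 1408, 1244 and 992 normalized counts in WT and 1297, 826 and 758 in the labelled libraries. The groups overlapped because *fmo-4* OE replicate 1 was as high as WT and WT replicate 3 was low. On the log2 scale *cle-1* differed by -0.34 (SE 0.24, 95% interval -0.89 to 0.22, edgeR adjusted p = 0.914), and without *fmo-4* OE replicate 1 it was -0.60 with an unadjusted p of 0.019 and an edgeR adjusted p of 0.405. It was -0.19 without *fmo-4* OE replicate 3, -0.24 without *fmo-4* OE replicate 2 and -0.23 without WT replicate 1, with unadjusted p of 0.487, 0.415 and 0.429.

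The split of *cle-1* was also that of the length index of the libraries, the median log2 CPM of the top quartile of genes by length minus that of the bottom quartile. The index was 3.45, 3.58 and 3.67 in the 3 libraries with 1244 to 1408 normalized counts of *cle-1*, and 3.01, 3.15 and 3.24 in the 3 with 758 to 992. With the index as a covariate the log2 difference of *cle-1* was -0.38 (unadjusted p = 0.024, edgeR adjusted p = 0.307). In that fit *lam-3*, *lam-2* and *epi-1* were higher, with unadjusted edgeR p of 0.027, 0.026 and 0.020. Unadjusted calls over all genes were 1028 higher and 824 lower in it, against 580 and 404 in the reported fit. The longer members *unc-52* (11584 bases), *epi-1* (11249) and *lam-3* (9451) did not divide the libraries by the index. The part of transcript length in *cle-1* was not tested beyond this. The deposited interval of the gene (C36B1.1, chromosome I, 8705687 to 8710955, minus strand) spans 28.3% of the RefSeq gene. Its deposited length, 4271 bases, is nonetheless 97.6% of its merged exon bases in WBcel235. *cle-1* shares 250 exon bases, 5.71% of its exons in WBcel235, with genes on the other strand, among them *cdk-8*. Whether the counting used strand is not stated, so reads there cannot be assigned to a strand.

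*nid-1*, nidogen (F54F3.1, chromosome V, 12910113 to 12917221, plus strand), was the most even member. It had 1708, 1756 and 1311 normalized counts in WT and 1631, 1668 and 1583 in the labelled libraries, a 1.34-fold range over all 6. The log2 difference was 0.03 (SE 0.15, 95% interval -0.31 to 0.38, edgeR adjusted p = 0.974), and -0.093 without WT replicate 3, its lowest library.

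*unc-52*, perlecan, anchors body wall muscle to the epidermis. It had 2952, 3290 and 2711 normalized counts in WT and 2681, 2361 and 2997 in the labelled libraries. WT replicate 2 was the highest library and *fmo-4* OE replicate 2 the lowest, with the other 4 between them. *unc-52* differed by -0.16 on the log2 scale (SE 0.14, 95% interval -0.47 to 0.16, edgeR adjusted p = 0.956). *unc-52* is known for many alternatively spliced forms, and the annotation of WBcel235 lists 17 transcripts. The deposited interval (ZC101.2, chromosome II, 14661269 to 14666943, minus strand) spans 5675 bases while the deposited length is 11584 bases, so the count covers more of the gene than that interval and shows nothing of single isoforms.

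**Figure D3:**
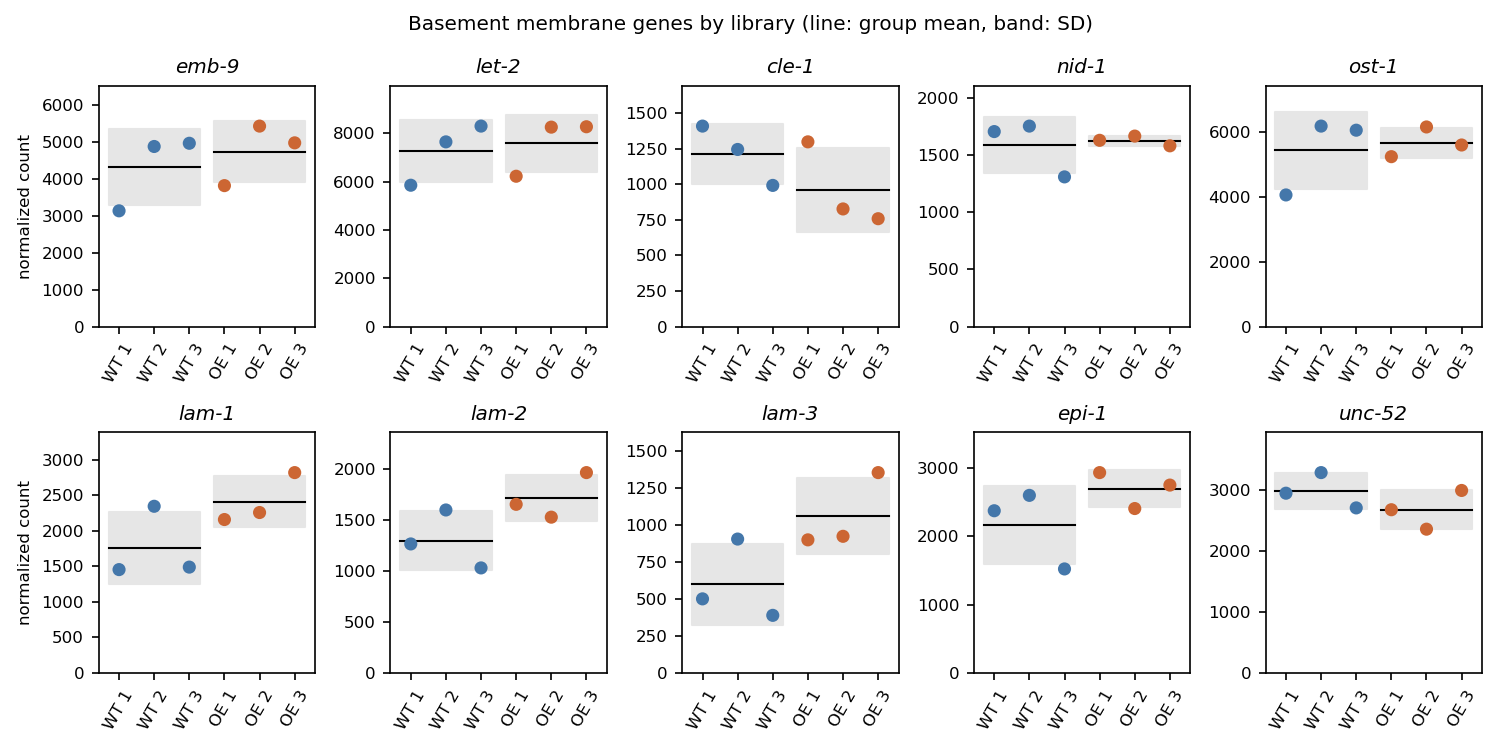
Normalized count of each member in each library, 1 panel per gene, with axes from 0. Blue points are WT and orange points the libraries labelled *fmo-4* OE (OE 1 to 3). The black line is the group mean and the grey band 1 SD on either side. WT 2 stands among the OE points in all 4 laminin panels, and replicate 1 is low in *emb-9* and *let-2*.

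Chains of 1 trimer were then compared within a library, where depth and scaling cancel. The ratio of *emb-9* to *let-2* FPKM was 0.559, 0.666 and 0.624 in WT and 0.640, 0.687 and 0.628 in the labelled libraries. Every library had more *let-2* than *emb-9* transcript on the FPKM scale, and the vertebrate trimer is known to hold more alpha1 than alpha2 chains. The mean log2 ratio differed by 0.08 between groups (exact two-sided permutation test, p = 0.4, adjusted p = 0.6 over 3 ratios). The smallest p that 3 against 3 libraries allow is 0.1.

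The ratio of *lam-1* to *lam-2*, the beta to the gamma chain, was 1.07, 1.36 and 1.34 in WT and 1.21, 1.37 and 1.33 in the labelled libraries. It was above 1 in all 6 libraries and differed by 0.06 on the log2 scale between groups (exact two-sided permutation test, p = 0.8, adjusted p = 0.8). Without WT replicate 1, the lowest of the 6, the difference was -0.05. The summed FPKM of both alpha chains over that of *lam-2* was 1.05, 1.03 and 0.863 in WT and 1.08, 1.03 and 0.993 in the labelled libraries. The same sum over *lam-1* was 0.986, 0.757 and 0.644 in WT and 0.896, 0.750 and 0.747 in the labelled libraries. On the deposited lengths the alpha chains together were near the gamma chain and below the beta chain, in all 6 libraries for the latter.

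The alpha chains shared this sum unequally. The ratio of *epi-1* to *lam-3* FPKM was 3.99, 2.42 and 3.29 in WT and 2.74, 2.19 and 1.71 in the labelled libraries. *epi-1* exceeded *lam-3* everywhere, and the groups overlapped through WT replicate 2. The log2 ratio was lower by 0.54 in the labelled libraries, a difference of -0.54 (exact two-sided permutation test, p = 0.2, adjusted p = 0.6). *lam-3* accordingly gave 20.1%, 29.3% and 23.3% of the alpha chain FPKM in WT, and 26.7%, 31.3% and 36.9% in the labelled libraries.

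**Figure D4:**
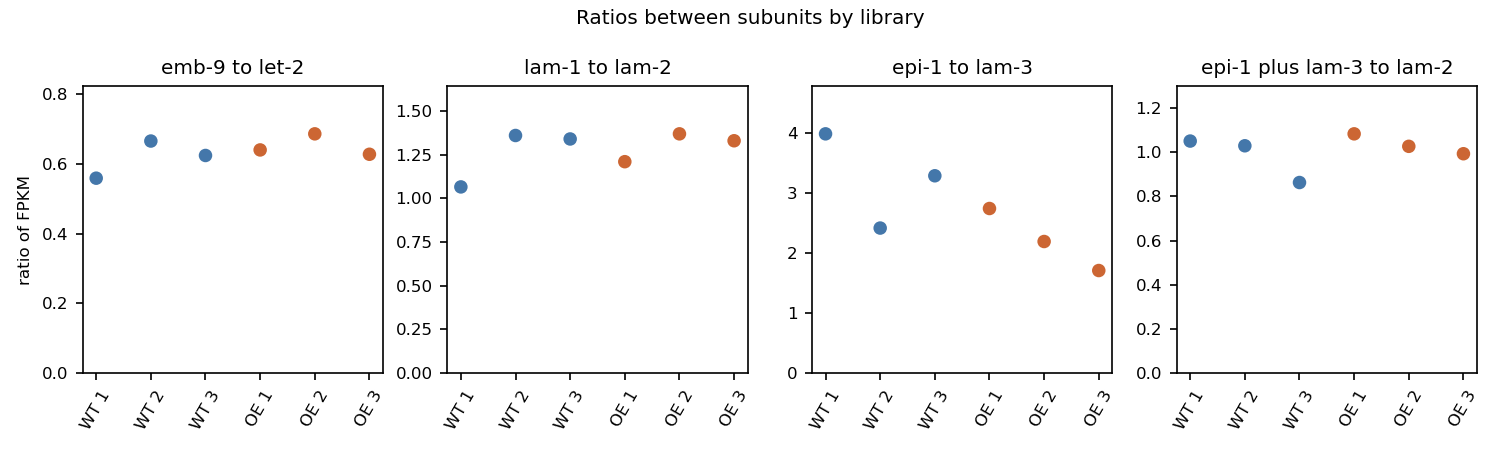
Ratios of FPKM between chains in each library, with axes from 0. Blue points are WT and orange points the libraries labelled *fmo-4* OE (OE 1 to 3). The first 3 panels were tested and the last, the sum of *epi-1* and *lam-3* over *lam-2*, is a description that lies between 0.863 and 1.08.

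Across the 6 libraries the members therefore fell into patterns that cut across the labels. *emb-9* and *let-2* were low in both libraries numbered 1. *ost-1* was low in WT replicate 1 and near its mean in *fmo-4* OE replicate 1. The laminins were low in WT replicates 1 and 3, with *epi-1* near its mean in WT replicate 1. The range over libraries was 3.47-fold for *lam-3*, 1.94-fold for *lam-1*, 1.92-fold for *epi-1* and 1.91-fold for *lam-2*, against 1.73-fold for *emb-9*, 1.52-fold for *ost-1* and 1.42-fold for *let-2*.

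Markers of embryos and sperm also set WT replicates 1 and 3 apart. The summed normalized count of 7 early embryo zygotic markers, genes switched on in the first embryonic cells, was 53.7, 113 and 74.8 in WT and 138, 160 and 185 in the labelled libraries. It was lowest in WT replicates 1 and 3 and highest in *fmo-4* OE replicate 3, as *lam-1*, *lam-2* and *lam-3* were, but WT replicate 2 lay below all 3 labelled libraries here and among them in the laminins. Of these 7 markers, 4 passed the filter, with 2 higher and 0 lower at an unadjusted p under 0.05. Among all genes 4.32% were higher and 3.01% lower. *end-1* and *tbx-38* passed the filter only through the labelled libraries, and *tbx-38* is 1 of the 2 that were higher, so that this count is in part set by the filter. The sum of 5 sperm markers was 1288, 173 and 1246 in WT and 226, 321 and 207 in the labelled libraries, so that WT replicates 1 and 3 held the most, and 3 of these 5 were lower at an unadjusted p under 0.05 and 0 higher. Their part in the laminin levels was not tested.

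Body wall muscle markers, 8 genes for the main source of type IV collagen, summed to 87310 to 96510 normalized counts in WT and 73471 to 90935 in the labelled libraries. Of these, 1 was higher, *hlh-1*, and 0 lower at an unadjusted p under 0.05, beside 4.32% and 3.01% of all genes. Somatic gonad markers, 5 genes, summed to 493 to 717 in WT and 512 to 664 in the labelled libraries, with 0 lower and 1 higher, *lag-2*, which passed the filter only through the labelled libraries. Hypodermis markers, 6 genes, summed to 2492 to 3243 in WT and 3116 to 3889 in the labelled libraries. *lin-26* gave most of each sum and differed by 0.006 on the log2 scale. Of the 5 tested, 2 were higher, *dpy-7* and *nhr-25*, and 0 lower at that threshold. Their median log2 difference was 1.41, with 4 of 5 above 0. In WT replicates 1 to 3, *hlh-1* had 27.3, 78.0 and 45.7 normalized counts and *lag-2* 7.09, 18.1 and 9.68. *dpy-7* had 17.2, 162 and 29.9 and *nhr-25* 68.8, 156 and 73.9 there, so WT replicate 2 was the highest of WT in each. *lin-26* was highest in WT replicate 1, at 2822, 2456 and 2063. No listed marker in the table was at 0 in every library. In such whole-worm libraries, fewer cells of a type and less RNA per cell cannot be told apart.

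**Figure D5:**
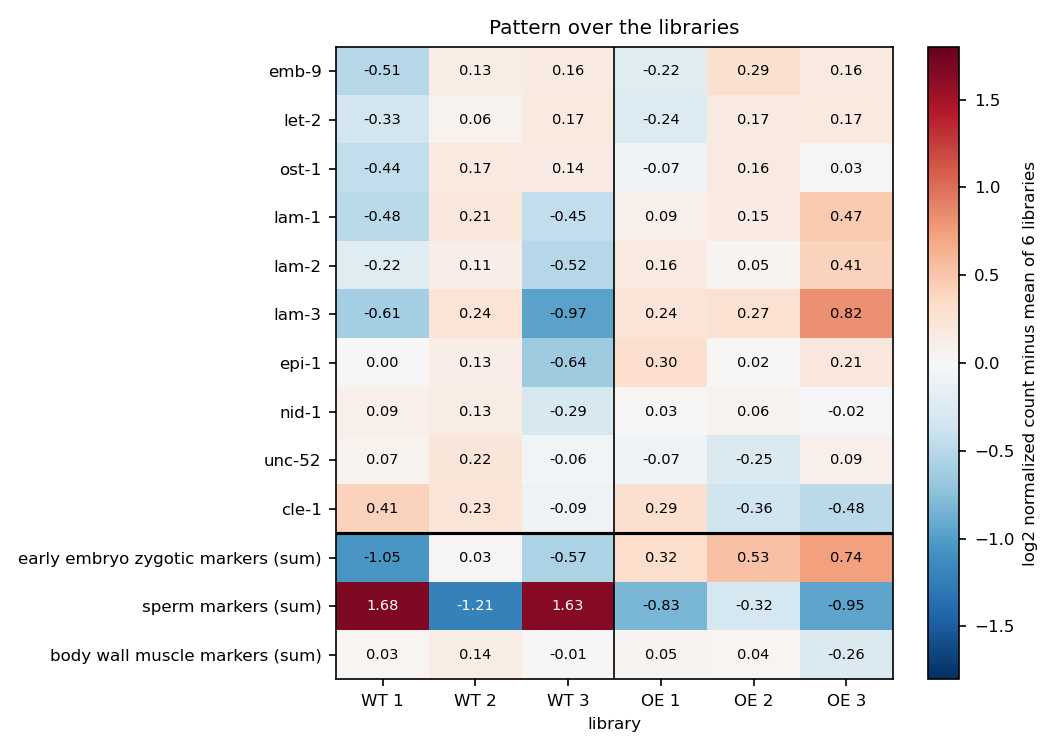
Log2 normalized count of each member, and of 3 summed marker lists, minus its own mean over the 6 libraries (colour scale and printed values). Columns are WT replicates 1 to 3 and the libraries labelled *fmo-4* OE (OE 1 to 3). *lam-1*, *lam-2*, *lam-3* and the early embryo markers have their lowest values in WT 1 and WT 3, *epi-1* is low in WT 3, and the sperm markers are high in both.

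The genes with the most similar patterns were found by the root mean square difference of centred log2 normalized counts over the 6 libraries, among 8677 genes with a mean of at least 100 normalized counts. For the mean pattern of *emb-9* and *let-2* these were *rsp-2* (0.031), *skr-1* (0.037) and *cpn-3* (0.039), which encode a splicing factor, a Skp1-related protein and a calponin. *rsp-2*, for example, had 2583, 3626 and 3641 normalized counts in WT and 2793, 3863 and 3713 in the labelled libraries. Among the other members *ost-1* was nearest, at 0.097, and the remaining 7 lay between 0.307 and 0.578. SPARC thus followed the type IV collagens more closely than any laminin did in these libraries.

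For the mean pattern of *lam-1* and *lam-2* the most similar genes were *exc-9* (0.063), *rml-5* (0.071) and *sma-1* (0.074). *sma-1* encodes the heavy beta spectrin of epithelia and *exc-9* a protein of the excretory canal. *sma-1* had 2377, 3218 and 2280 normalized counts in WT and 3376, 2923 and 4138 in the labelled libraries. Of the other members *epi-1* was nearest to this pattern at 0.200, then *nid-1* at 0.276 and *lam-3* at 0.288. The measure counts the size of a swing as well as its shape, so this order does not rank likeness of shape. Like *lam-1* and *lam-2*, *lam-3* was lowest in WT replicates 1 and 3 and highest in *fmo-4* OE replicate 3. Its range was 3.47-fold, against 1.34-fold for *nid-1*, which was highest in WT replicate 2. *ost-1* lay at 0.319, *unc-52* at 0.330, *let-2* at 0.331, *emb-9* at 0.334 and *cle-1* at 0.552.

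Other genes of the pathway were counted in 6 lists of 47 genes, of which 43 were tested. At an adjusted p under 0.05 edgeR called 0 of them. At an unadjusted p under 0.05, 8 were higher and 0 lower, beside 4.32% and 3.01% of all genes. Of the 8, *zmp-5* passed the filter only through the labelled libraries. Their median log2 difference was 0.07. Single libraries decided these unadjusted calls: 1 of the 8 kept its call without WT replicate 1 or without *fmo-4* OE replicate 3, 3 without WT replicate 3, 5 without *fmo-4* OE replicate 2, 6 without *fmo-4* OE replicate 1 and 7 without WT replicate 2. Without WT replicate 2, edgeR called 1 listed gene, *ddr-2*, after adjustment (adjusted p = 0.048).

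Among 6 other matrix components, 2 were higher at an unadjusted p under 0.05 and 0 lower, with a median of -0.01. *agr-1*, agrin, a heparan sulfate proteoglycan that binds laminin in vertebrates, had 51.6, 122 and 47.5 normalized counts in WT and 131.5, 128 and 201 in the labelled libraries. *unc-6*, a netrin with laminin-like domains, had 125, 195 and 118 in WT and 229, 207 and 266 in the labelled libraries. Neither gene's groups overlapped, and 5.85% of all genes likewise had every labelled library above every WT library. WT replicate 2 was again the WT library nearest to the labelled ones. On the log2 scale the difference was 1.07 for *agr-1* and 0.68 for *unc-6* (SE 0.42 and 0.26), with edgeR adjusted p of 0.617 and 0.615.

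Of 3 cell surface proteoglycans, 2 were higher at an unadjusted p under 0.05 and 0 lower, with a median of 0.58. *sdn-1*, the syndecan, had 882, 1264 and 797 normalized counts in WT and 1391, 1319 and 1689 in the labelled libraries, a log2 difference of 0.58 (SE 0.21, edgeR adjusted p = 0.594). *gpn-1*, a glypican, was low throughout, at 12.1, 12.4 and 23.8 in WT and 24.0, 29.0 and 55.3 in the labelled libraries, a log2 difference of 1.15 (SE 0.49, edgeR adjusted p = 0.662).

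Matrix receptors were listed as 9 genes, of which 7 were tested, with a median of 0.27. Of these 7, 1 was higher and 0 lower at an unadjusted p under 0.05, beside 4.32% and 3.01% of all genes. *ddr-2*, a discoidin domain receptor, a class that binds collagen in mammals, had 52.6, 210.2 and 72.1 normalized counts in WT and 239, 216 and 360 in the labelled libraries. The log2 difference was 1.29 (SE 0.52, edgeR adjusted p = 0.644), and the WT libraries divided as they did for the laminins. *ina-1*, the alpha integrin of the laminin-binding kind, had 756, 911 and 580 in WT and 824, 882 and 1004 in the labelled libraries, with overlapping groups and a log2 difference of 0.27 (SE 0.20, edgeR adjusted p = 0.930).

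The proteins that link integrin to the cytoskeleton, 6 genes, had a median of 0.06 with 0 higher and 0 lower at an unadjusted p under 0.05. *tln-1*, talin, differed by 0.34 on the log2 scale (SE 0.16, edgeR adjusted p = 0.720) and *pat-4*, the integrin-linked kinase, by 0.22 (SE 0.18, edgeR adjusted p = 0.955).

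Genes for collagen modification and secretion, 10 listed and 9 tested, had a median of -0.04. Of these 9, 1 was higher and 0 lower at an unadjusted p under 0.05, beside 4.32% and 3.01% of all genes. *dpy-18*, a prolyl 4-hydroxylase alpha subunit, had 349, 594 and 451 normalized counts in WT and 495, 857 and 967 in the labelled libraries, a log2 difference of 0.73 (SE 0.30, edgeR adjusted p = 0.635). *pdi-2*, its partner subunit, differed by 0.47 (SE 0.22, edgeR adjusted p = 0.701). Both enzymes serve cuticle collagens as well. In both genes *fmo-4* OE replicates 2 and 3 were the highest libraries and replicate 1 was the lowest of its group.

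Matrix proteases and their inhibitors, 13 listed and 12 tested, had a median of -0.08, with 2 higher and 0 lower at an unadjusted p under 0.05. Both that were higher are zinc matrix metalloproteases at low counts. For *zmp-5* the reads were 0, 4 and 2 in WT, against 11, 20 and 16 in the labelled libraries (log2 2.87, SE 0.80, edgeR adjusted p = 0.583). It passed the filter only through the labelled libraries, where it was high, and was not tested with a minimum of 10 counts per library. Without it 1 of 11 proteases and inhibitors was higher. For *zmp-2* they were 16, 32 and 20 in WT, against 37, 59 and 80 in the labelled libraries (log2 1.32, SE 0.43, edgeR adjusted p = 0.583).

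Cuticle collagens, the other large collagen group of the worm and the product of the hypodermis, were set beside the basement membrane collagens. The table held 163 of them and 98 were tested, with a median log2 difference of 0.80, beside 0.13, 0.06 and -0.34 for *emb-9*, *let-2* and *cle-1*. Of the 98, 77 were above 0, and 0 were called after edgeR adjustment. At an unadjusted p under 0.05, 16 were higher and 0 lower, beside 4.32% and 3.01% of all genes. *dpy-2* had 22.3, 114 and 33.4 normalized counts in WT and 129, 289 and 394 in the labelled libraries, a log2 difference of 2.27 (SE 0.68, edgeR adjusted p = 0.583). *col-43* had 11.1, 35.0 and 18.5 in WT and 42.3, 79.6 and 62.0 in the labelled libraries, a log2 difference of 1.52 (SE 0.48, edgeR adjusted p = 0.583). With 1 library left out the median ran from 0.10, without *fmo-4* OE replicate 3, to 1.41, without *fmo-4* OE replicate 1, and the number higher ran from 3 to 49 under the same omissions. Of the 98, 7 passed the filter only through the labelled libraries, among them 4 of the 16 that were higher, and 9 only through WT. DESeq2 called 1 of the 98 after adjustment, and edgeR 2 without WT replicate 2. With at least 10 counts in each library the median was 0.15. Whether the basement membrane and cuticle collagens differ in this respect was not tested.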

How the data were processed

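Poly-A RNA of 6 whole-worm libraries was analysed, 3 WT and 3 labelled *fmo-4* OE, grouped by their labels. The authors deposited a table of read counts per gene, without normalization, and FPKM computed from the same counts. The FPKM column was checked to be the count divided by the deposited gene length and 1 factor per library. The submitters' processing notes list fastp, HISAT2, StringTie and featureCounts. The genome build, annotation and use of strand in counting are not given in the sources used here, and coordinates are as deposited. The authors' fold changes and p-values of the same comparison were not used, nor were 60 further columns of single-library values, which hold scaled values and repeats in shorter lists. No sequence is printed.

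Counts were filtered with filterByExpr, which left 13413 of 20138 genes, scaled by TMM and tested with the quasi-likelihood test of edgeR 4.0.16 (limma 3.58.1, R 4.3.3), with Benjamini-Hochberg adjustment over all genes tested. Normalized counts are reads divided by the TMM-adjusted library size relative to the mean. The biological coefficient of variation was 0.297. Scripts were tested on simulated data. Gene names were matched by sequence name. The 10 members and all lists were chosen with earlier results of these data known. Genes named were the members, *fmo-4*, the 2 genes of each other list with the smallest unadjusted p where none was called, and the 3 genes nearest to each pattern. *zmp-6*, *phy-4*, *dgn-2* and *dgn-3* did not pass the filter. Alternatives were DESeq2 1.42.0, RLE or plain library size, other count filters, a replicate block, the length index as a covariate and leaving out each library.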

Additional observations from a re-analysis of the deposited data

How the results depend on the processing

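Under all 13 alternatives 0 of 10 members were called after adjustment, and the median of the members ran from 0.0049 to 0.24 with 1 library left out, within its spread between libraries. Over all genes, calls after adjustment were 2 higher and 4 lower. They became 0 and 4 with plain library size, 4 and 6 with no filter beyond 1 count, 0 and 0 with a minimum of 10 counts per library, 5 and 6 with the length index as a covariate, and 44 and 48 with DESeq2. With 1 library left out they ran from 0 to 51 higher and 0 to 80 lower, the highest without WT replicate 2 and 0 in both directions without WT replicate 1. Members higher at an unadjusted p under 0.05 numbered 1 in the reported fit, 3 with no filter, 3 with the length index and 0 to 3 with 1 library left out. Members lower numbered 0, then 1 with the length index and 0 to 1 with 1 library left out. The replicate block gave 2 higher and 1 lower, with 2 higher and 3 lower over all genes after adjustment and 0 among the members. Whether the replicate numbers pair the libraries is not stated. Deviations of same-numbered libraries from their group means correlated at 0.40, -0.30 and 0.34. Deviations from a mean of 3 libraries constrain each other, so these values cannot decide it. With 1 library left out, log2 differences ran from -0.066 to 0.29 for *emb-9*, -0.084 to 0.21 for *let-2*, -0.093 to 0.11 for *nid-1*, -0.12 to 0.16 for *ost-1*, 0.32 to 0.71 for *lam-1*, 0.26 to 0.58 for *lam-2*, 0.59 to 1.25 for *lam-3*, 0.11 to 0.47 for *epi-1*, -0.60 to -0.19 for *cle-1* and -0.24 to -0.077 for *unc-52*, and the *lam-1* to *lam-2* ratio from -0.053 to 0.12. The laminins, *cle-1* and *unc-52* kept their direction under all 13. The cause of these shifts was not tested. With 3 libraries a group, the 95% intervals of the members are 0.64 to 1.53 wide on the log2 scale.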
